A study of Mus musculus and Sus scrofa with 18 samples.

Results

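The neurotrophins Bdnf and Ntf3, the related trophic factor Gdnf, and 5 receptors for them, Ntrk2, Ntrk3, Ngfr, Sort1 and Gfra1, were followed in the striatum of Huntington's disease (HD) knock-in mice and their controls. The 8 genes were chosen by name as ligands and receptors of these families, with earlier results of these data known. They were matched to the Ensembl identifiers of the mouse count table, where they are 8 of 55357 genes. All 8 passed the filter on low counts, which left 19463 genes for testing.

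The 9 mice formed 3 groups of 3, and each library came from 1 mouse. Mice of the untreated and treated groups were heterozygous HD 140Q-KI animals on a C57BL/6J background, in which exon 1 of the mouse gene is exchanged for its human HTT counterpart carrying a long CAG tract, so that the mutant protein is made wherever the Htt promoter is active. WT mice lacked this allele. All mice were injected with AAV9 into the striatum on both sides at 6 months of age and killed 6 weeks later. WT mice received AAV-Ctrl gRNA, untreated mice AAV-CasRx/Ctrl gRNA and treated mice AAV-CasRx/HTT gRNAs, where CasRx is an RNA-cutting Cas13d enzyme driven by the ubiquitous CAG promoter and the gRNAs are driven by U6. CasRx was thus given to both HD groups and not to WT mice, so in a comparison with WT the effects of the mutant allele and of CasRx cannot be told apart.

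Neurotrophins are secreted growth factors that keep neurons alive and tune their synapses. Striatal projection neurons make little Bdnf of their own and receive most of it along axons from the cortex, and the loss of this supply is a long-standing theme of HD research. Mature Bdnf and Ntf3 act on the receptor tyrosine kinases TrkB (Ntrk2) and TrkC (Ntrk3), uncleaved proneurotrophins act on Ngfr together with sortilin (Sort1), and Gdnf binds Gfra1, which then engages the kinase Ret.

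The stretch just before a transcription start holds many of the sites through which a gene is controlled, and 1 start site each of Bdnf, Gdnf and Ntf3 is printed below because each held a match to a searched motif. The sequences are RefSeq's on the mouse build GRCm38.p6, run 5′ to 3′ on the gene's own strand, and end at the base before the start.
Bdnf, start site 3 of 7, chr2:109692186-109692435, plus strand: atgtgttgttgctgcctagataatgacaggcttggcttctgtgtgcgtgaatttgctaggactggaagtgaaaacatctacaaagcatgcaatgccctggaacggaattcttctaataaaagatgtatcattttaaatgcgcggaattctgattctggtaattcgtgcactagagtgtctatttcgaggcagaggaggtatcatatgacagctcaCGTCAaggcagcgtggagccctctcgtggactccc
Gdnf, start site 1 of 2, chr15:7809798-7810047, plus strand: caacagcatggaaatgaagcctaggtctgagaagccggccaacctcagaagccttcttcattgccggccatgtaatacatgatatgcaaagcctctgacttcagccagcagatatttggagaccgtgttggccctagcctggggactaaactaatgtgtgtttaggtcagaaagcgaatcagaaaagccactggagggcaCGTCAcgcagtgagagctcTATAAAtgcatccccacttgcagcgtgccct
Ntf3, start site 1 of 2, chr6:126166745-126166994, minus strand: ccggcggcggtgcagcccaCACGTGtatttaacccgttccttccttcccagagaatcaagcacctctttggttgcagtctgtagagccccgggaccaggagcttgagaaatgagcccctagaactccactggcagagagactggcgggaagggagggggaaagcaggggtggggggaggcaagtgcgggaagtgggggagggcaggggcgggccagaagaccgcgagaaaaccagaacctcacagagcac
Capitals mark the matches. TGACG and TATAAA were added to the search after the longer motifs had given few matches. Bdnf held TGACG, the core of the cAMP response element (CRE), read on the opposite strand, 35 bases before the start, and Gdnf held it 50 bases before the start and a TATA box, TATAAA, 31 bases before the start. Ntf3 held an E-box, CACGTG, 231 bases before the start. Of 32817 promoter windows of 250 bases in the same table, searched on both strands, 17.7% held TGACG, 12.4% held TATAAA and 6.02% held CACGTG. Also searched were the full CRE, TGACGTCA, which contains TGACG and lies in 1.55% of windows, the EGR site GCGTGGGCG (0.536%), and the left arm TTCAGCACC (0.302%) and right arm GGACAGCG (0.99%) of RE1, the site bound by the repressor REST. The 4 matches named above were the only ones in the 14 windows of the 6 genes that the table covers. Ntrk3 and Sort1 had no window. The counts do not separate the start sites of Bdnf.

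Libraries held between 27184356 and 32102121 counts, which were reads from the 3′ ends of mRNA counted per gene without normalization. Levels below are CPM, the counts of a gene scaled to a common library size with edgeR's TMM factors, and adjusted p-values come from edgeR's quasi-likelihood fit with Benjamini-Hochberg adjustment over all 19463 genes. Among markers of striatal projection neurons, 10 of 10 were lower at an adjusted p under 0.05 in untreated mice than in WT and 9 of 10 in treated mice. Of all genes, 6.1% and 2.78% were. The summed level of these markers was 5764 to 7597 CPM in WT, 1785 to 2141 CPM in untreated and 2918 to 2955 CPM in treated mice. Markers of cortical excitatory neurons were also counted in every library, with a summed level of 1059, 454 and 308 CPM in WT mice, 1505, 1256 and 1499 CPM in untreated mice and 922, 912 and 862 CPM in treated mice, so that WT replicate 1 stood apart from the other WT mice. Choroid plexus markers ranged from 37.4 to 3809 CPM. Y-linked transcripts were counted in the 3 WT mice and in untreated replicate 1 (3435 to 5005 counts) and had 0 counts in the other 5. Their presence therefore separates treated from WT mice completely and cannot be told apart from the group in that comparison, and among untreated mice only replicate 1 shares it with WT. The targeted gene, Htt, had log2 fold changes of −0.37 (adjusted p = 0.00656) in untreated against WT, −0.46 (adjusted p = 0.00425) in treated against WT and −0.10 (adjusted p = 0.942) in treated against untreated mice. A count per gene does not separate the mutant allele, whose human exon 1 the gRNAs target, from the normal mouse allele. By quantitative PCR of the mutant transcript, the paper reported a reduction in treated mice.

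The first comparison, untreated HD mice against WT, asked how the family stood in the diseased striatum. Gdnf, Ntrk2 and Ntrk3 were lower in untreated mice, with log2 fold changes of −1.35, −0.26 and −0.33. None of the 8 genes passed the test as higher, although the estimate for Bdnf was 1.39. The 3 of 8 genes called at an adjusted p under 0.05 stand against 10.7% of all genes tested, of which 4.58% were higher and 6.1% lower. By the study's rule of an unadjusted P under 0.05 and at least a 2-fold change, 2 of 8 were called, Bdnf and Gdnf, against 8.16% of all genes. The median log2 fold change of the 8 genes was −0.26, and that of all genes was 0.02. The 3 calls rested on few mice: with 1 mouse left out, without WT replicate 1 Bdnf, Gdnf and Ntrk2 were called and Ntrk3 was not, without WT replicate 2 Ntrk3 alone was called, without untreated replicate 2 Gdnf alone was, and 0 genes were called without any one of the other 6.

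**Figure D1:**
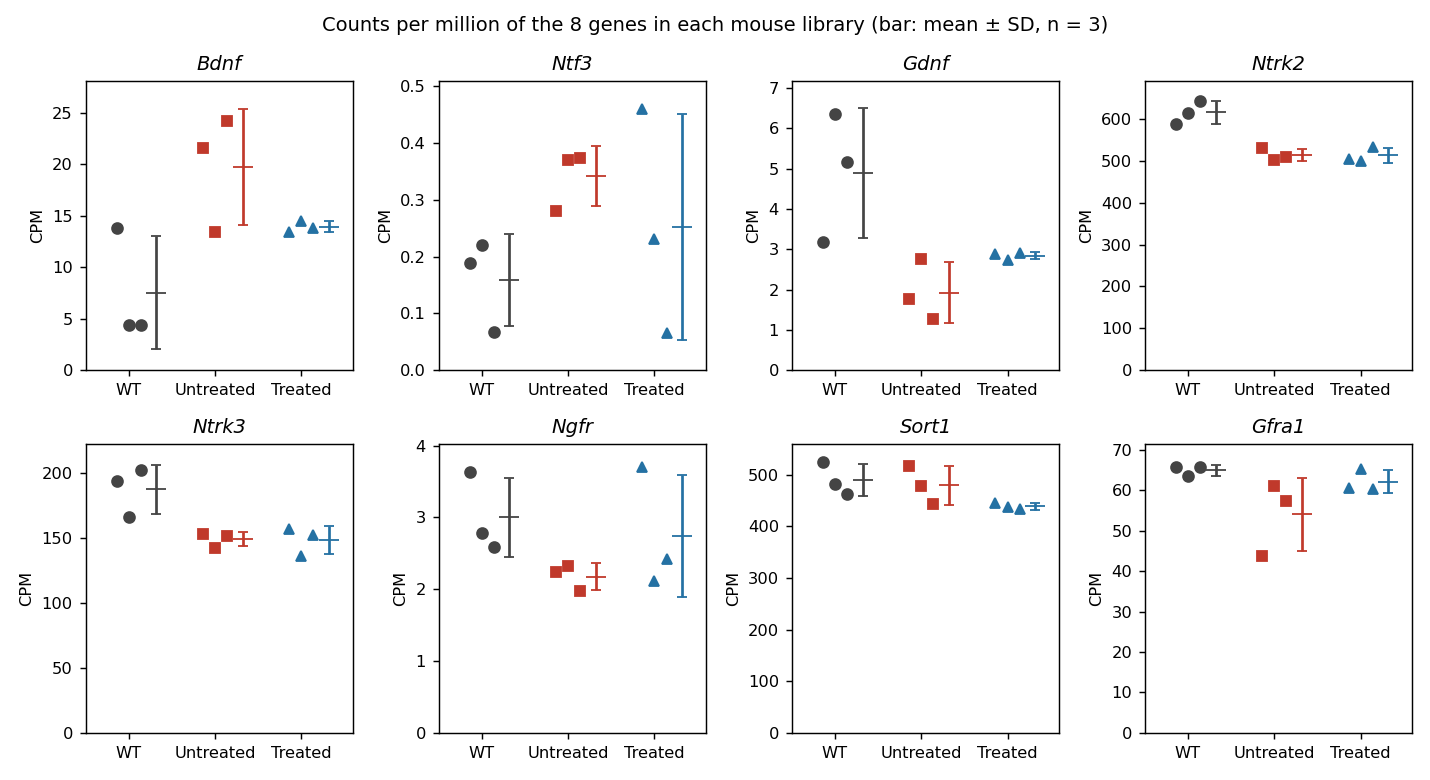
Level of each of the 8 genes in CPM (vertical axis from 0) in the 3 WT, 3 untreated and 3 treated mice, in order of replicate number, with the group mean ± SD beside the points. For Bdnf, WT replicate 1 at 13.8 CPM lies among the treated mice. For Gdnf, Ntrk2, Ntrk3, Ngfr and Gfra1 every untreated mouse lies below every WT mouse, and for Ntf3 every one lies above. The share of all genes that separate in this way was not counted.

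Bdnf (ENSMUSG00000048482, chromosome 2) encodes brain-derived neurotrophic factor. Its level was 13.8, 4.40 and 4.35 CPM in WT mice (7.53 ± 5.45, SD, n = 3), 21.6, 13.4 and 24.2 CPM in untreated mice (19.7 ± 5.60, SD, n = 3) and 13.5, 14.5 and 13.8 CPM in treated mice (13.9 ± 0.529, SD, n = 3). WT replicate 1 was as high as the treated mice and above untreated replicate 2, so the untreated and WT groups overlapped. The log2 fold change in untreated against WT was 1.39 (standard error 0.42, 95% interval 0.46 to 2.33), and it did not pass the adjusted threshold (adjusted p = 0.0625). Without WT replicate 1 it was 2.16 (adjusted p = 9.55e-04). DESeq2 also called it (log2 fold change 1.40, adjusted p = 0.00335).

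Bdnf was read beside the markers of cortical excitatory neurons, whose axons bring most of the Bdnf protein found in the striatum. The mean log2 CPM of the 10 markers was 5.56, 4.26 and 3.74 in WT mice, 6.22, 5.85 and 5.97 in untreated mice and between 5.38 and 5.40 in treated mice. WT replicate 1 was thus the highest WT mouse both for Bdnf and for these markers. Untreated replicate 2, by contrast, was above every treated mouse for the markers but not for Bdnf (13.4 CPM, against 13.5 to 14.5 CPM in treated mice). In untreated against WT, 9 of the 10 markers had an unadjusted P under 0.05, as did 5575 of all 19463 genes, and 3 of the markers, Neurod2 (log2 fold change 1.68, adjusted p = 0.0360), Cux2 (0.97, adjusted p = 0.0321) and Nrn1 (1.69, adjusted p = 0.0155), were called. Of all genes, 4.58% were called higher. None of the 10 was at 0 in any library. With the marker mean as a covariate in the fit, an alternative chosen after the data were seen, the log2 fold change of Bdnf was 0.11 (adjusted p = 0.939). The marker mean was higher in every untreated mouse than in any other mouse, and within groups it varied mostly among the WT mice. The fit therefore leans on the spread among 3 WT mice and reaches beyond the levels that the groups share. It cannot tell the part of the markers from that of the group. In bulk tissue, more or fewer cells of a type and more or less RNA per cell cannot be told apart. The part of cortical tissue in the level of Bdnf was not tested.

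**Figure D2:**
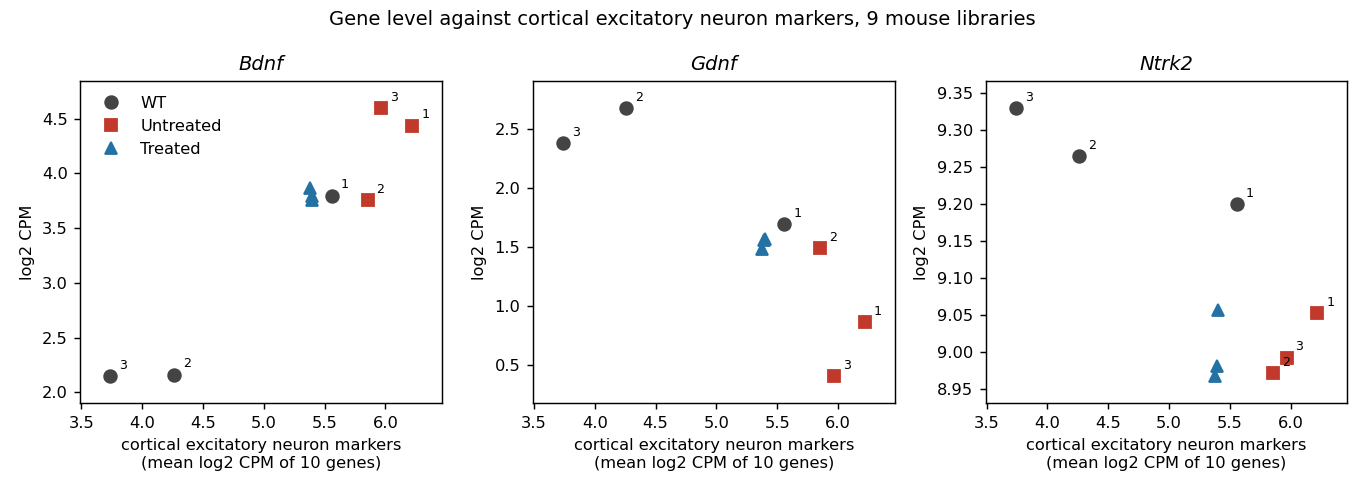
Log2 CPM of Bdnf, Gdnf and Ntrk2 (vertical axes) against the mean log2 CPM of the 10 cortical excitatory neuron markers (horizontal axis) in the 9 libraries, with the replicate number beside WT and untreated points. For Bdnf and Gdnf, WT replicate 1, at 5.56 on the marker axis, sits beside the treated mice and away from WT replicates 2 and 3, at 4.26 and 3.74, whereas for Ntrk2 it sits above every treated and untreated mouse.

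Ntf3 (ENSMUSG00000049107, chromosome 6), which encodes neurotrophin-3, was near the limit of what these libraries could count. WT mice had 5, 6 and 2 counts, untreated mice 8, 11 and 11 counts, and treated mice 15, 7 and 2 counts. All untreated mice were above all WT mice, at 0.281 to 0.374 CPM against 0.0665 to 0.220 CPM, but the log2 fold change of 1.10 had a 95% interval of −0.42 to 2.62 (adjusted p = 0.317). A difference was not detectable at this depth.

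Gdnf (ENSMUSG00000022144, chromosome 15), a survival factor for midbrain dopamine neurons, fell in untreated mice. WT mice had 3.17, 6.35 and 5.15 CPM (4.89 ± 1.60, SD, n = 3), untreated mice 1.75, 2.75 and 1.26 CPM (1.92 ± 0.762, SD, n = 3) and treated mice 2.88, 2.73 and 2.91 CPM (2.84 ± 0.0930, SD, n = 3), from 37 to 173 counts per library. Every untreated mouse was below every WT mouse. The log2 fold change was −1.35 (standard error 0.32, adjusted p = 0.0317), a level 0.393 times that of WT, and the exact permutation test of the groups gave p = 0.1, the smallest that 3 mice against 3 allow (two-sided). With 1 mouse left out it lay between −1.71 and −1.11, and the call held without WT replicate 1 (adjusted p = 0.0122) or untreated replicate 2 (adjusted p = 0.0275) and was lost without any one of the other 7 mice (adjusted p up to 0.104). With the cortical markers as a covariate the value was −0.56 (adjusted p = 0.715). Parvalbumin interneurons are a known source of striatal Gdnf. Pvalb, which was looked up after the values were seen, had 41.3, 25.8 and 57.5 CPM in WT and 65.7, 53.2 and 43.4 CPM in untreated mice (log2 fold change 0.38, adjusted p = 0.373). Of 6 markers of cholinergic interneurons, another cell type of the striatum, 4 were called lower in untreated mice and 1 in treated mice, beside 6.1% and 2.78% of all genes. Their median log2 fold change was −1.32 in untreated against WT. Their summed level was 61.0 to 96.4 CPM in WT, 31.7 to 44.4 CPM in untreated and 53.2 to 63.8 CPM in treated mice, and none was at 0 in any library. The part of either cell type in the level of Gdnf was not tested.

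Ntrk2 (ENSMUSG00000055254, chromosome 13), the gene of the Bdnf receptor TrkB, fell by a small and even amount. It was counted at 588, 615 and 644 CPM in WT mice (616 ± 27.9, SD, n = 3), 531, 502 and 509 CPM in untreated mice (514 ± 15.0, SD, n = 3) and 505, 500.2 and 533 CPM in treated mice (513 ± 17.5, SD, n = 3). The groups of HD mice lay wholly below WT. The log2 fold change in untreated against WT was −0.26 (standard error 0.07, adjusted p = 0.0428). With 1 mouse left out the value stayed between −0.31 and −0.23, but the adjusted p passed the threshold only without WT replicate 1 (0.0340) and reached 0.123 without untreated replicate 2. It was −0.18 (adjusted p = 0.629) with the cortical marker covariate.

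Ntrk3 (ENSMUSG00000059146, chromosome 7), the gene of the Ntf3 receptor TrkC, changed in the same direction. WT mice had 194, 166 and 202 CPM (188 ± 19.0, SD, n = 3), untreated mice 153, 143 and 152 CPM (149 ± 5.67, SD, n = 3) and treated mice 157, 136 and 152 CPM (148 ± 10.8, SD, n = 3). Again no HD mouse reached the lowest WT mouse, and the log2 fold change in untreated against WT was −0.33 (standard error 0.09, adjusted p = 0.0440). With 1 mouse left out the value lay between −0.41 and −0.27, and the call held only without WT replicate 2 (adjusted p = 0.0226). Its highest adjusted p was 0.113, without untreated replicate 2, and with the cortical marker covariate the value was −0.35 (adjusted p = 0.513). In the annotation (GENCODE M21) the coding transcripts of Ntrk2 and of Ntrk3 have 6 distinct ends each and those of Gfra1 have 8, and a count per gene pools full-length kinase receptors with truncated forms that lack the kinase. An antisense gene that overlaps Ntrk3, Gm9885, had 43 to 85 counts per library against at least 4139 for Ntrk3.

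Ngfr (ENSMUSG00000000120, chromosome 11) encodes the low-affinity receptor shared by all neurotrophins. It had 3.63, 2.79 and 2.59 CPM in WT mice, 2.25, 2.32 and 1.97 CPM in untreated mice and 3.71, 2.11 and 2.42 CPM in treated mice. Untreated mice were below WT mice without overlap, whereas treated replicate 1 was the highest of all 9. The log2 fold change in untreated against WT was −0.46 with a 95% interval of −1.03 to 0.10 (adjusted p = 0.259).

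Sort1 (ENSMUSG00000068747, chromosome 3), the sorting receptor sortilin, was counted at 524, 482 and 463 CPM in WT mice, 517, 478 and 443 CPM in untreated mice and 446, 438 and 433 CPM in treated mice. Untreated and WT mice overlapped throughout, and the 95% interval of the log2 fold change ran from −0.21 to 0.15 around −0.03 (adjusted p = 0.845). The treated mice were below every WT mouse, with a log2 fold change of −0.16 (95% interval −0.34 to 0.02, adjusted p = 0.295).

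Gfra1 (ENSMUSG00000025089, chromosome 19) encodes the protein that binds Gdnf at the cell surface. WT mice had 65.9, 63.4 and 65.6 CPM, untreated mice 43.7, 61.1 and 57.3 CPM and treated mice 60.6, 65.4 and 60.3 CPM. Every untreated mouse was below every WT mouse, and untreated replicate 1, the untreated mouse with Y-linked counts, was the lowest of the 9. The log2 fold change in untreated against WT was −0.27 (95% interval −0.52 to −0.01, adjusted p = 0.153). With the presence of Y-linked counts as a covariate, a fit that sets untreated replicate 1 alone against WT, it was −0.57.

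The second comparison set treated HD mice against the same WT mice, and the third set them against the untreated mice to ask what the HTT gRNAs changed. Against WT, 0 of the 8 genes were called, with 3.69% of all genes called (0.904% higher and 2.78% lower), and 0 were called by the rule of P under 0.05 and 2-fold, which called 5.22% of all genes. The median log2 fold change of the 8 genes was −0.14, against 0.00 over all genes. DESeq2 called 2 of them, Ntrk2 (−0.26, adjusted p = 0.00267) and Ntrk3 (−0.33, adjusted p = 0.0124). By edgeR, 3 of the 8 had an unadjusted P under 0.05, as did 4160 of all 19463 genes. Without WT replicate 1, Bdnf was called (log2 fold change 1.66, adjusted p = 0.00657), and without WT replicate 2, Ntrk3 was (−0.41, adjusted p = 0.0374).

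Ntrk2 and Ntrk3 had log2 fold changes of −0.26 and −0.34 in treated against WT mice (adjusted p = 0.0688 for both), beside −0.26 and −0.33 in untreated against WT mice. These comparisons share the WT mice. Gdnf was at −0.78 (95% interval −1.49 to −0.08, adjusted p = 0.192) and every treated mouse was below every WT mouse. Bdnf was at 0.89 (95% interval −0.04 to 1.82, adjusted p = 0.254). Gfra1 was at −0.07 (95% interval −0.32 to 0.19), Ngfr at −0.13 (95% interval −0.68 to 0.43) and Ntf3 at 0.68 (95% interval −0.87 to 2.23), and none of these 3 was called.

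Between treated and untreated mice 0 of the 8 genes were called by edgeR, as were 0% of all 19463 genes. All 8 overlapped between these groups, and the share of all genes that did was not counted. Of all genes, 1071 had an unadjusted P under 0.05, none of them among the 8, and the smallest adjusted p was 0.348. The rule of P under 0.05 and 2-fold called 0.771% of all genes and 0 of the 8, and DESeq2 also called 0 of the 8. The intervals of the receptors were narrower than those of the ligands. Ntrk2 was at −0.00 (95% interval −0.16 to 0.15), Ntrk3 at −0.01 (95% interval −0.21 to 0.19) and Sort1 at −0.13 (95% interval −0.31 to 0.05). Gfra1 was at 0.20 (95% interval −0.05 to 0.45) and Ngfr at 0.34 (95% interval −0.23 to 0.90). For each ligand the interval included a change of over 2-fold. Bdnf was at −0.50 (95% interval −1.41 to 0.41), Gdnf at 0.56 (95% interval −0.16 to 1.29) and Ntf3 at −0.43 (95% interval −1.84 to 0.99). The adjusted p-values of the 8 genes were 0.923 or higher.

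**Figure D3:**
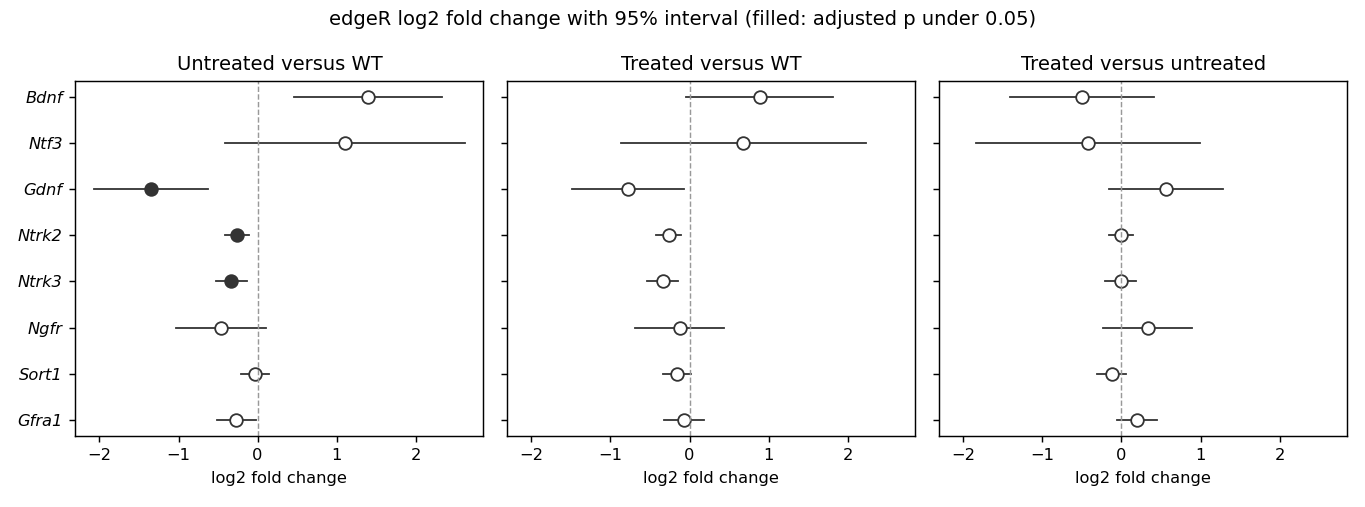
Log2 fold change (horizontal axis) of the 8 genes by edgeR with 95% intervals as bars in the 3 comparisons, with filled points for an adjusted p under 0.05. Gdnf, Ntrk2 and Ntrk3 are filled for untreated against WT at −1.35, −0.26 and −0.33, and no gene is filled in the other comparisons.

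Other receptors and co-receptors of the families were read from the same fit. Of 12 listed, 10 were tested and 4 were called in untreated against WT, 2 lower and 2 higher, with a median log2 fold change of −0.01. The share called among all genes was 10.7%. Sorcs2, a sortilin relative that pairs with Ngfr for proneurotrophins, had 95.8 to 118 CPM in WT, 48.7 to 67.5 CPM in untreated and 61.3 to 64.4 CPM in treated mice. It was lower in untreated mice (log2 fold change −0.86, standard error 0.12, adjusted p = 0.00372) and in treated mice (−0.80, standard error 0.12, adjusted p = 0.00948) than in WT, and with 1 mouse left out the first call was never lost and the second was lost without any one of the treated mice (adjusted p up to 0.0658). Both calls were lost with the cortical marker covariate, at −0.59 (adjusted p = 0.323) in untreated and −0.64 (adjusted p = 0.0887) in treated mice.

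Gfra2, the co-receptor for neurturin, had 41.7, 23.9 and 16.9 CPM in WT mice, 61.9, 52.7 and 67.9 CPM in untreated mice and 32.8, 31.9 and 35.0 CPM in treated mice. It was higher in untreated mice than in WT (log2 fold change 1.15, standard error 0.27, adjusted p = 0.0291). In treated against untreated mice it was at −0.87 (95% interval −1.47 to −0.28, unadjusted P = 0.00884, adjusted p = 0.886). As for Bdnf, WT replicate 1 was the highest WT mouse, and with the cortical marker covariate the value against WT was 0.22 (adjusted p = 0.705). The call was lost without WT replicate 2, untreated replicate 1 or untreated replicate 3 (adjusted p up to 0.0965).

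Sorl1, another sortilin relative, was higher in untreated mice (log2 fold change 0.36, standard error 0.09, adjusted p = 0.0366), and this call was lost in 6 of 9 fits with a mouse left out, those without WT replicate 2 or 3, any one of the untreated mice or treated replicate 1 (adjusted p up to 0.0943). Its value with the cortical marker covariate was 0.21 (adjusted p = 0.652). A further 6 receptors did not pass in untreated against WT. Their log2 fold changes were −0.50 (adjusted p = 0.281) for Ret, the kinase that carries Gdnf signals, 0.07 (adjusted p = 0.713) for Gfra4, −0.19 (adjusted p = 0.233) for Sorcs1, 0.43 (adjusted p = 0.0952) for Sorcs3, 0.59 (adjusted p = 0.104) for Lingo1, a partner of Ngfr, and −0.09 (adjusted p = 0.458) for Ncam1, an alternative Gdnf receptor. Gfra3 and Gfral fell under the filter.

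None of the other tested ligands was called. Nrtn, which encodes neurturin, had 2.08, 3.23 and 2.69 CPM in WT mice, 0.807, 1.85 and 1.12 CPM in untreated mice and 1.47, 1.22 and 1.62 CPM in treated mice. Both HD groups lay below WT, with log2 fold changes of −1.08 (95% interval −1.80 to −0.36, adjusted p = 0.0613) and −0.89 (95% interval −1.60 to −0.18, adjusted p = 0.147). In untreated against WT, Artn, which encodes artemin, was at −0.74 (95% interval −1.90 to 0.42). Ntf5, Pspn and Gdf15 fell under the filter.

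Downstream of the receptors, 136 genes in 8 lists, other ligands and receptors included, were looked up, and 130 of them were tested. In untreated against WT 27 were called, 6 higher and 21 lower, and in treated against WT 13 were called, all lower, beside the shares of all genes called given above. Their median log2 fold changes were −0.09 and −0.08. Between treated and untreated mice 0 were called and 13 had an unadjusted P under 0.05. Leaving out 1 mouse gave 17 to 38 calls for untreated mice, lowest without untreated replicate 2. It gave 2 to 19 for treated mice, with 7 without WT replicate 2, 8 without untreated replicate 2, and 3, 4 and 2 without treated replicates 1, 2 and 3. With the cortical markers as a covariate, 0 and 2 were called, and with Y-linked counts, 3 and 0.

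**Figure D4:**
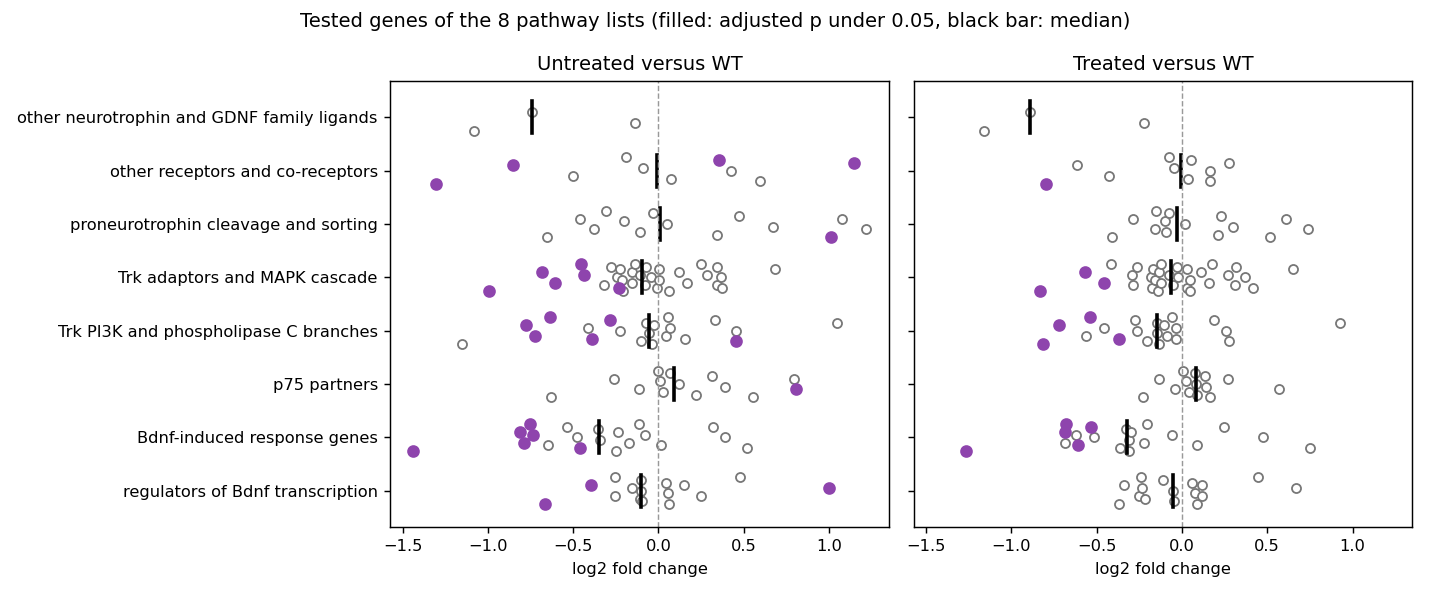
Log2 fold change (horizontal axis) of the tested genes of the 8 lists in untreated and treated mice against WT, with filled points for an adjusted p under 0.05 and a black bar at the median of each list. The 6 filled points of the Bdnf-induced response genes lie left of 0 in untreated mice, and the list's median was −0.35.

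The genes known to be induced when Bdnf activates TrkB were lower where they were called. Of 20 tested, 6 fell in untreated and 5 in treated mice against WT and 0 rose, with medians of −0.35 and −0.32. Of all genes, 6.1% and 2.78% were called lower. Egr2, an immediate early transcription factor, had 17.4, 22.9 and 21.8 CPM in WT mice, 6.45, 6.72 and 9.75 CPM in untreated mice and 6.25, 11.8 and 7.78 CPM in treated mice. Its log2 fold change against WT was −1.44 (standard error 0.25, adjusted p = 0.00932) in untreated and −1.27 (standard error 0.25, adjusted p = 0.0260) in treated mice. Egr3, of the same family, was at −0.81 (adjusted p = 0.00497) and −0.61 (adjusted p = 0.0284), and Spry2, a feedback inhibitor of receptor tyrosine kinases, at −0.76 (adjusted p = 0.00205) and −0.69 (adjusted p = 0.00595). In untreated mice these 3 calls held with each mouse left out, and in treated mice that of Spry2 did, whereas Egr2 lost it without WT replicate 2, WT replicate 3, treated replicate 1 or treated replicate 3 (adjusted p up to 0.109) and Egr3 also without treated replicate 2 (up to 0.132). None of the 3 was called with the cortical marker covariate. In untreated mice Egr2 was then at −1.10 (adjusted p = 0.432), Egr3 at −0.90 (adjusted p = 0.177) and Spry2 at −0.56 (adjusted p = 0.264). In treated mice they were at −1.07 (adjusted p = 0.184), −0.66 (adjusted p = 0.117) and −0.57 (adjusted p = 0.0684). Neurons of the striatum express these genes, and the markers of striatal projection neurons fell in the same mice. Their part in the result was not tested.

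Of the adaptors and kinases that link Trk receptors to MAP kinase, 6 of 32 were called in untreated mice and 3 of 32 in treated mice, all lower. The shares of all genes called lower were 6.1% and 2.78%. Rps6ka5, a kinase that acts on CREB and chromatin, was at −0.99 (adjusted p = 0.00360) in untreated and −0.83 (adjusted p = 0.0140) in treated mice. Hras was at −0.69 (adjusted p = 0.00795) and −0.57 (adjusted p = 0.0290), and Ptpn11, the phosphatase SHP2 by its common name, at −0.43 (adjusted p = 0.00623) and −0.26 (adjusted p = 0.0686). For untreated mice each of these calls held with any mouse left out. For treated mice those of Rps6ka5 and Hras were lost without any one of the treated mice (adjusted p up to 0.0869 and 0.124), and that of Hras also without untreated replicate 2. All of these calls were lost with the cortical marker covariate. In untreated mice Rps6ka5 was then at −0.76 (adjusted p = 0.307), Hras at −0.62 (adjusted p = 0.362) and Ptpn11 at −0.42 (adjusted p = 0.295). In treated mice Rps6ka5 was at −0.69 (adjusted p = 0.119) and Hras at −0.53 (adjusted p = 0.183).

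In the PI3 kinase and phospholipase C branches, 6 of 21 were called in untreated mice, 1 higher and 5 lower, and 4 in treated mice, all lower. The shares of all genes called were 10.7% and 3.69%. Itpr1, the calcium channel opened by inositol trisphosphate and abundant in striatal projection neurons, was at −0.72 in both (adjusted p = 0.00103 and 0.00324). Camk2b was at −0.64 (adjusted p = 0.00249) and −0.54 (adjusted p = 0.00970), and Camk4, a calcium-dependent kinase that acts on CREB, at −0.78 (adjusted p = 0.00540) and −0.82 (adjusted p = 0.00817). All 3 calls in untreated mice held with each mouse left out. In treated mice Itpr1 did too, Camk2b was lost without any one of the treated mice (adjusted p up to 0.0739), and Camk4 without treated replicate 2 or 3 (up to 0.0623). The cortical marker covariate gave −0.64 (adjusted p = 0.132), −0.49 (adjusted p = 0.268) and −0.90 (adjusted p = 0.157) for Itpr1, Camk2b and Camk4 in untreated mice. In treated mice it gave −0.67 (adjusted p = 0.0361), −0.46 (adjusted p = 0.0921) and −0.89 (adjusted p = 0.0458).

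Genes that regulate Bdnf transcription gave 3 calls of 16 in untreated and 0 of 16 in treated mice, beside 10.7% and 3.69% of all genes. Npas4, an activity-dependent activator of Bdnf, was at −0.67 (adjusted p = 0.0149) and −0.37 (adjusted p = 0.136), and Crtc1, a CREB coactivator, at −0.39 (adjusted p = 0.0200) and −0.34 (adjusted p = 0.0539). Mef2c, a transcription factor abundant in cortical neurons, was at 1.00 (adjusted p = 0.0335) and 0.45 (adjusted p = 0.327). The call of Npas4 was lost without untreated replicate 2 (adjusted p = 0.0505) and that of Crtc1 without untreated replicate 2 or 3 (up to 0.0610). That of Mef2c was lost without any one mouse other than WT replicate 1 (up to 0.0804), and with the cortical marker covariate its value was 0.26 (adjusted p = 0.733). Npas4 and Crtc1 were at −0.75 (adjusted p = 0.328) and −0.30 (adjusted p = 0.534) in untreated mice with this covariate.

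Among proteases and inhibitors that act on proneurotrophins, 1 of 14 was called in untreated and 0 in treated mice, beside 10.7% and 3.69% of all genes. It was Serpini1, the neuronal inhibitor of tissue plasminogen activator, at 1.01 (standard error 0.23, adjusted p = 0.0284) in untreated mice, and the call was lost without WT replicate 2, WT replicate 3, untreated replicate 1 or untreated replicate 2 (adjusted p up to 0.0698). With the cortical marker covariate its value was 0.35 (adjusted p = 0.690). The convertases Pcsk7 and Pcsk1 were at −0.38 (adjusted p = 0.0775) and 0.67 (adjusted p = 0.120). Among partners of Ngfr, 1 of 14 was called in untreated and 0 in treated mice, beside the same shares of all genes. Bex1 and Ripk2, which bind or act beneath Ngfr, were at −0.63 (adjusted p = 0.0531) and 0.55 (adjusted p = 0.0837).

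The genes whose log2 CPM over the 9 libraries was most like that of Bdnf, among 18828 genes searched, were Dpp4 (Pearson's r = 0.991), Fkbp1b (0.989) and Pde1a (0.984). Those most like Ntrk2 were Map3k13 (0.991), Heatr6 (0.990) and Ccng2 (0.982). These are descriptions over 9 libraries that differ in group and in cortical markers.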

How the data were processed

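RNA from the striatum of 9 mice was sequenced by the authors with a 3′ mRNA kit. They deposited raw counts per Ensembl gene, made with STAR by the study's methods, whereas the submitters' processing notes name Trimmomatic 0.39, FastQC 0.11.9, HISAT2 2.2.1 and featureCounts 2.0.1. The mouse build is not given in the sources used here, so genes carry a chromosome only. Symbols were matched for 52081 identifiers, which hold 99.8% of the counts. Pig counts were not used here. The 8 genes and the lists were chosen with earlier results of these data known.

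In R 4.3.3 with edgeR 4.0.16, genes were filtered by filterByExpr, scaled by TMM and fitted by glmQLFit over all 9 libraries, with 6 residual degrees of freedom. A call was a Benjamini-Hochberg adjusted p under 0.05. Log2 CPM used a prior count of 2, and standard errors are the fold change over the square root of F. Of each further list, the 3 genes with the smallest P in untreated against WT were named, with the ligands and receptors of the families, Htt, listed markers and the 3 genes most like Bdnf and Ntrk2. Markers of 9 cell types were read, and those without a result in the text above gave 0 of 7 (astrocyte), 1 of 6 (oligodendrocyte), 0 of 6 (microglia), 2 of 7 (endothelial and mural), 1 of 8 (choroid plexus) and 0 of 6 (meningeal) calls in untreated against WT, and 1, 0, 0, 1, 0 and 0 in treated against WT. The shares of all genes called in these comparisons were 10.7% and 3.69%. Some genes of the lists are counted but not reported here by name. Alternatives were DESeq2 1.42.0, other scalings, filters, call rules, prior count and fits, covariates, a replicate block and each mouse left out. On simulated data for untreated against WT (19128 genes, 200 of them changed), 65.9% of 2-fold and 94.5% of 4-fold changes were found, and 5.23% of calls were false. Each gene was drawn independently and no gene of very low level was changed. These rates therefore need not hold for mice that differ in cortical or Y-linked transcripts, or for genes such as Ntf3. P-values set a difference against the spread between mice within groups, estimated over all 3 groups together and with information shared across genes.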

Additional observations from a re-analysis of the deposited data

How the results depend on the processing

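With 3 mice per group, the 3 calls among the 8 genes in untreated against WT became 1 with library size scaling or Y-linked counts as a covariate, and 0 without a low-count filter, with only the 2 groups compared or with the cortical marker covariate (chosen after the data were seen), and ran from 0 to 3 with 1 mouse left out. For the pathway genes the 27 calls became 47 by DESeq2, 15 with only the 2 groups, 3 with Y-linked counts, 0 with cortical markers, 8 or 5 by P under 0.05 or 0.01 with a 2-fold change, and 17 to 38 with 1 mouse left out. In treated against WT the 0 calls became 2 by DESeq2, 1 with the replicate block, and 0 to 1 with 1 mouse left out, and the 13 pathway calls became 23 by DESeq2, 6 without a filter, 0 with Y-linked counts, 2 with cortical markers, 1 by either P and fold rule, and 2 to 19 with 1 mouse left out. For the 8 genes in untreated against WT, DESeq2 gave 4 calls, Bdnf beside the 3 of the main fit. In treated against untreated every alternative gave 0. The covariate for Y-linked counts was estimated from the untreated mice alone, the only group with both states. With it, the comparison of untreated mice with WT rests on untreated replicate 1 alone. The cortical marker mean did not overlap between untreated and other mice, and within groups it varied mostly among the WT mice. The fit with it therefore cannot tell the part of the markers from that of the group. Whether the replicate numbers pair the mice cannot be decided from so few mice. Same-numbered mice had correlations of their deviations from the group means between −0.08 and 0.24, and different-numbered mice between −0.28 and 0.16. With the replicate block the calls were 3 and 1 for the 8 genes and 26 and 11 for the pathway genes, with Bdnf called (1.50, adjusted p = 0.0435) and Ntrk2 not (adjusted p = 0.0671). Of 427 fold changes of the 8 genes under alternatives, 398 kept their direction, 38 lost a call and 9 gained one. The 29 that reversed were not called in either fit. In treated against untreated, Bdnf went to 0.13 with cortical markers, Ntf3 lay between −1.19 and 0.025 with 1 mouse left out (0.025 without treated replicate 3), Ntrk2 to 0.0022 (DESeq2 size factors and DESeq2), 0.0070 (library size), 0.0035 (no filter), 0.014 (10 counts in every library), 0.0027 (2 groups), 0.020 (Y-linked) and −0.027 to 0.027 with 1 mouse left out, and Ntrk3 to 0.0027 (library size), 0.0092 (10 counts), 0.010 (Y-linked), 0.0010 (cortical markers) and −0.046 to 0.055 with 1 left out. In treated against WT, Ntf3 lay between −0.087 (without treated replicate 1) and 1.12, Ngfr between −0.40 and 0.038 (without treated replicate 2), and Sort1 to 0.0094 with Y-linked counts. In untreated against WT, Sort1 went to 0.017 with library size, 0.078 with Y-linked counts, and −0.094 to 0.024 with 1 mouse left out. The cause was not tested. With a prior count of 0.5 the mean level of Ntf3 in untreated mice moved to −1.49 log2 CPM. Ntf3 gave no value under a minimum of 10 counts, nor in the fits of only 2 groups that included WT.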
